A study of Rattus norvegicus with 8 samples.

Results

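The genes described here encode cytokines and chemokines, their receptors, and proteins named for their induction by, or inhibition of, cytokine signals. They were taken by gene name from the array: every probe that was not a control and whose gene name begins with the symbol of a CC, CXC or CX3C chemokine or receptor, an interleukin, a tumour necrosis factor (TNF) family member, a colony-stimulating factor, a suppressor of cytokine signalling (SOCS) or leukaemia inhibitory factor (LIF). Cxcl2, Cxcl12, Csf1r and Socs2 were left out. This gave 176 genes of the 26257 on the array, carried by 194 probes on 293 spots of each array. The RNA came from the pituitary of Wistar dams that were nursing, taken on postpartum day 7. One group was the controls (n = 4) and the other had been exposed to TCDD (n = 4), a dioxin that binds and activates the aryl hydrocarbon receptor (AhR). The labels give no dose, route, time of exposure or age, do not say what the controls received, and do not say whether an array held 1 animal or a pool, so any p-value here reflects only the variation among these 8 samples.

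Cytokines and chemokines are secreted proteins by which leukocytes, endothelium and many parenchymal cells signal to their neighbours. Chemokines act through G protein-coupled receptors and direct the movement of leukocytes. Interleukins and colony-stimulating factors act mostly through receptors that activate JAK kinases and STAT transcription factors, a signal that SOCS proteins shut off, while the interleukin-1 and TNF families act largely through NF-kB. In the pituitary, folliculostellate cells make interleukin-6, which with LIF and others signals through the shared chain gp130, and cytokines of this family are known to act on hormone cells.

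Each of the 8 arrays carried 1 sample in 1 colour, and between 71.1% and 73.9% of the spots that were not controls were well above background. The 2 groups were hybridised on separate slides, 1 for the 4 controls and 1 for the 4 TCDD samples, scanned on 1 day. Slide and exposure therefore cannot be told apart in any comparison here. Cyp1a1, the classic AhR target gene, was well above background on 0 of 4 control and 4 of 4 TCDD arrays. It was at least 7.28-fold higher with TCDD. Cyp1a1 entered the test through the TCDD arrays alone, so no p is read from it. All 8 markers of anterior pituitary hormone cells, such as prolactin and growth hormone, were well above background on all 8 arrays. Oxytocin and vasopressin transcripts and other posterior lobe and neural markers were detected too, with 7 of 8 markers tested. Levels are given as log2 of the processed signal minus the array's 75th percentile, so that 0 is that percentile and a difference of 1 is a doubling. Levels of different genes come from different probes and are not comparable with each other. Because the tissue was measured in bulk, fewer cells of a type and less RNA per cell cannot be told apart.

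Many of these genes were dim in the pituitary. Of the 176 genes, 75 (42.6%) were well above background on all 8 arrays, 36 on 1 to 7 arrays and 65 on none, whereas 61.8% of all genes on the array were so on all 8. Several well known interleukins were among the undetected: Il6, Il10, Il4 and Il17a had no array well above background, and neither had Il1r1, the signalling receptor of interleukin-1. The neutrophil attractant Cxcl1, the monocyte receptor Ccr1, the lymph node homing receptor Ccr7 and the granulocyte-macrophage factor Csf2 were likewise not well above background on any array. Il1b and Ccl2 were well above background on all 8 arrays and Tnf on 7. A gene was tested if its probe was well above background on 4 or more arrays, which held for 89 of the 176 genes (50.6%, against 66.1% of all genes), and the other 87 have no comparison.

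**Figure D1:**
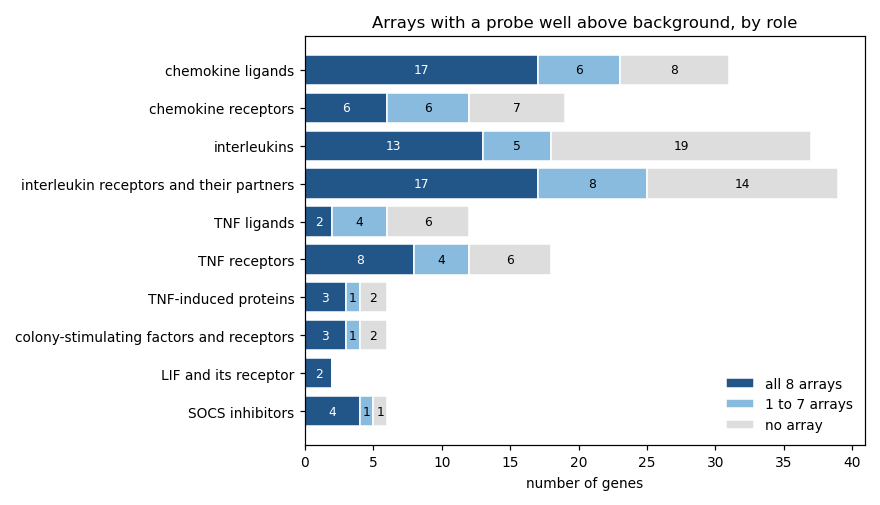
Number of genes of each role, on the horizontal axis, whose probe was well above background on all 8 arrays, on 1 to 7 arrays, or on no array. Of the chemokine ligands 17 of 31 were detected on all 8 arrays, and 19 of 37 interleukins were detected on none.

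Detection differed by role. Of the chemokine ligands 17 of 31 were well above background on all 8 arrays, of their receptors 6 of 19, of the interleukins 13 of 37 and of the interleukin receptors and their partners 17 of 39. TNF receptors reached 8 of 18 and TNF ligands 2 of 12. LIF and its receptor were both detected on all 8 arrays. Some untested genes were seen in 1 group only, but on few arrays: Ccl4 was well above background on 2 TCDD and 0 control arrays, and Cxcr2, Ccl9, Il2 and Il20 each on 2 control and 0 TCDD arrays. These 5 were picked out after their values were seen.

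No gene of the set passed the adjusted threshold between TCDD and control. Of the 89 genes tested, 0 had an adjusted p under 0.05 (limma, Benjamini-Hochberg over 17361 genes), where 14 of all genes did (0.0806%). The smallest adjusted p was 0.18, for the chemokine Ccl3. At an unadjusted p under 0.05 there were 10 of 89 (11.2%), against 10.7% of all genes, so the share among cytokine genes was close to the background. These were 4 higher with TCDD (Il12rb2, Csf3, Il18 and Ccl22) and 6 lower (Ccl3, Il20rb, Il6r, Il1a, Ccl5 and Lifr), where among all genes 7.76% were higher and 2.95% lower. With normexp background correction the split was 1 higher and 9 lower, and with quantile normalisation 3 and 8. These were 11.2% and 12.4% of the cytokine genes tested. The share of all genes at that level, in either direction, was 11.1% with normexp and 9.87% with quantile normalisation. The split of all genes by direction in these settings is not given here. Of the 10 genes, 6 remained at that level with normexp. Over the 75 genes well above background on all 8 arrays the split was 4 higher and 4 lower. That was 10.7%, against 10.6% of all genes so detected, and Il20rb and Il1a were not among the 75. The groups did not overlap for 4 of 89 genes (4.49%; all genes 7.1%), with Ccl3 and Il20rb lower (all genes 1.91%) and Il12rb2 and Csf3 higher (all genes 5.19%). Il20rb is in both counts but passed the filter on dim probes through its control arrays alone. Il1a, in the first count, passed that filter with 4 control arrays and 1 TCDD array.

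Differences lay on both sides of 0 and were somewhat wider than those of all genes. The median log2 difference was -0.02 over the 89 genes and 0.02 over all genes, with 42 genes higher and 47 lower, and the median size of the difference regardless of sign was 0.14 over the 89 and 0.09 over all genes. The estimate was within 1.5-fold for 85 of the 89 genes (95.5%, against 97.5% of all genes), and the 4 beyond it were Il18, Csf3r, Il20rb and Lif. The 95% interval of the difference lay wholly within 1.5-fold for 53 of the 89 genes, against 13735 of all 17361, and within 2-fold for 73, against 16189. For the other 16 the interval reached past 2-fold.

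**Figure D2:**
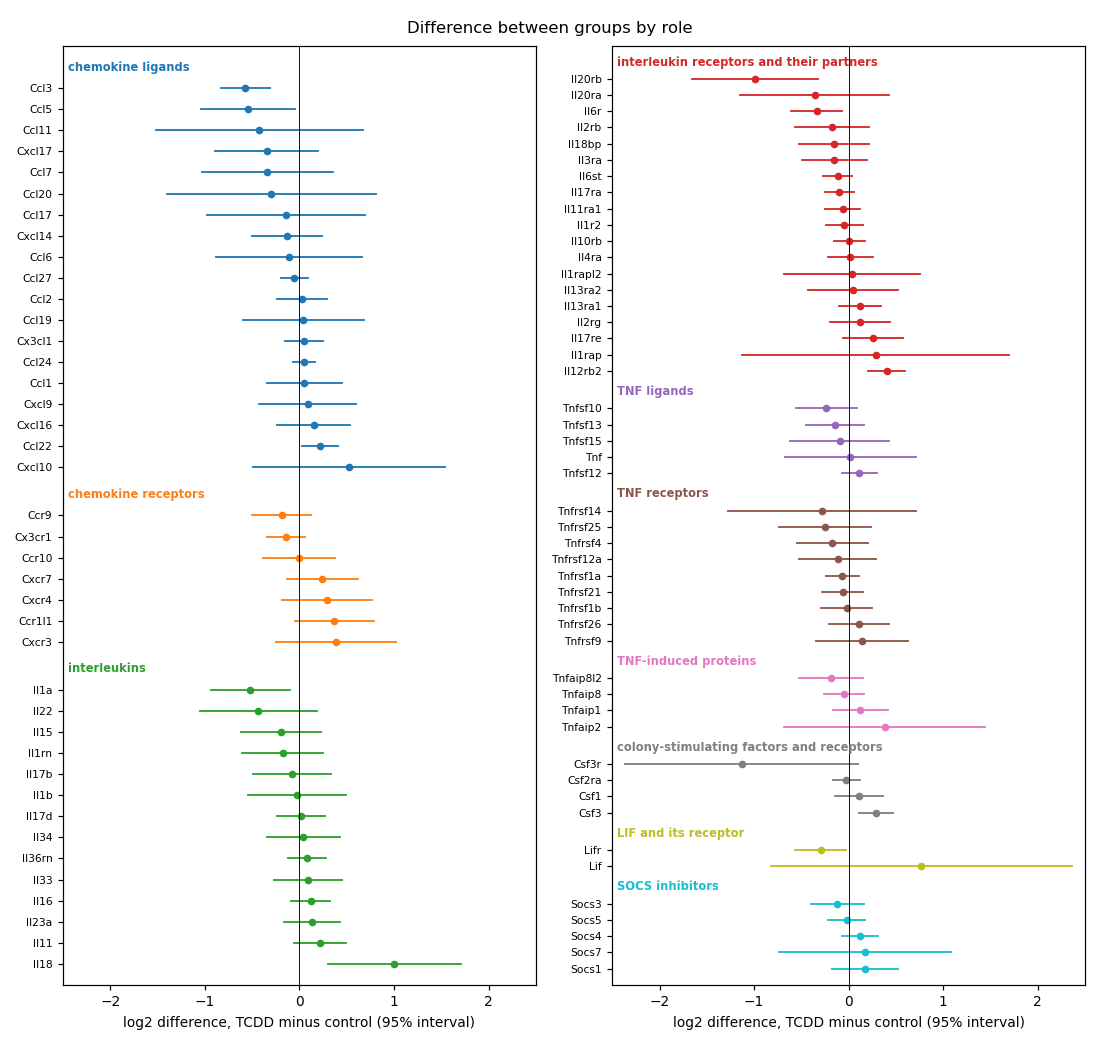
Log2 difference, TCDD minus control, of each gene tested and reported here, with its 95% interval from limma, grouped by role and ordered by size. Most points lie close to 0, Il18 stands at 1.00, and the widest intervals belong to Lif, Il1rap and Csf3r.

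The 19 chemokine ligands tested had a median of -0.05, with 9 higher and 10 lower. Ccl3, a macrophage product that attracts monocytes and T cells, stood at -4.68, -4.72, -4.88 and -4.60 on the control arrays and at -5.47, -5.21, -5.44 and -5.04 on the TCDD arrays. Every TCDD array was below every control array. The difference was -0.57 (SE 0.11), or 1.48-fold lower (adjusted p = 0.18; exact two-sided permutation p = 0.029, the smallest that 4 against 4 can give). Ccl3 was on 10 spots of each array, whose log2 signals had a median SD of 0.19 within an array. With normexp, which adds an offset of 50 to every spot, so pulling dim probes together, and is followed by quantile normalisation, the difference was -0.19.

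Ccl5, another attractant of T cells and monocytes, stood at -1.18, -1.10, -1.33 and -0.32 in controls and at -1.75, -1.28, -1.56 and -1.53 with TCDD. The groups overlapped through 1 control array, at -1.33, which lay below the TCDD array at -1.28, and control 4 stood well above the other controls. The difference was -0.55 (SE 0.22; adjusted p = 0.44; exact permutation p = 0.057), and without control 4 it was -0.33.

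Ccl22, which attracts regulatory T cells through Ccr4, was among the higher genes, at -3.59, -3.54, -3.68 and -3.38 in controls and -3.36, -3.41, -3.18 and -3.35 with TCDD. Only control 4 reached into the TCDD range, and the difference was 0.22 (SE 0.08; adjusted p = 0.42), or 0.14 with normexp. The monocyte attractant Ccl2 differed by 0.03 (SE 0.11), a value that turned to -0.02 with quantile normalisation. Cx3cl1, or fractalkine, a membrane-bound chemokine, differed by 0.05 (SE 0.09), and its receptor on macrophages and microglia, Cx3cr1, by -0.14 (SE 0.09). Of the remaining 14 ligands none was at an unadjusted p under 0.05 (all genes 10.7%). Their differences ran from -0.42 for the eosinophil attractant Ccl11 (SE 0.48) to 0.52 for the interferon-induced Cxcl10 (SE 0.44), and both varied widely within groups.

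The 8 chemokine receptors tested had a median of 0.12, which was -0.07 over the 6 detected on all 8 arrays. Beside Cx3cr1, Cxcr4, the receptor of Cxcl12, differed by 0.30 (SE 0.21), and Cxcr3, the T cell receptor of Cxcl9 and Cxcl10, by 0.39 (SE 0.27), or 0.05 with normexp. Cxcr7, now named Ackr3, a scavenger of Cxcl12, differed by 0.24 (SE 0.16), or 0.11 with normexp. Ccr1l1, a relative of Ccr1, was well above background on 1 control and 3 TCDD arrays and differed by 0.37 (SE 0.18), or by -0.04 with normexp. Of the chemokine receptors, 0 of 8 were at an unadjusted p under 0.05 (all genes 10.7%).

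**Figure D3:**
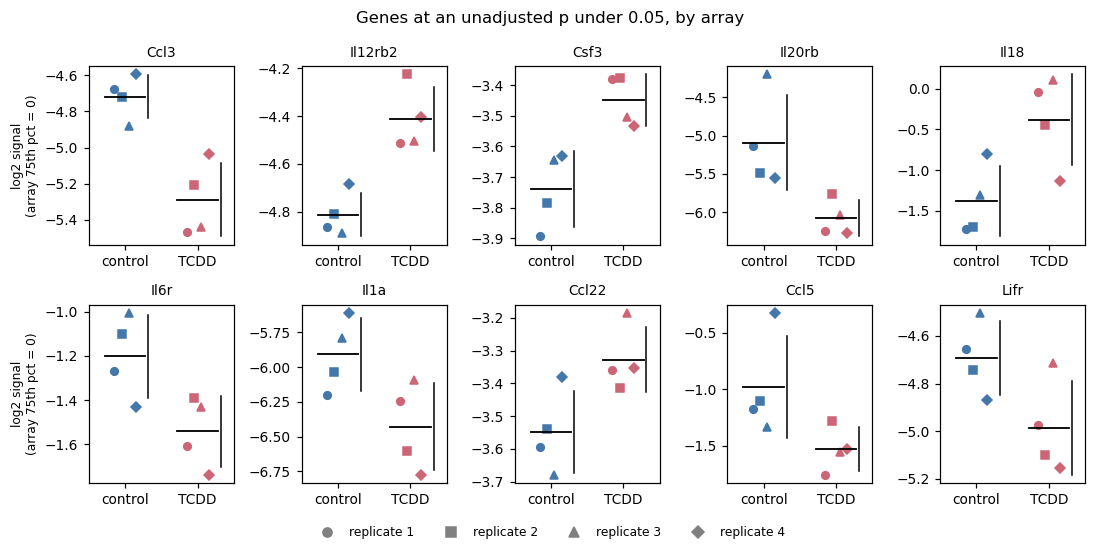
Log2 signal on each array, relative to the array's 75th percentile, of the 10 genes at an unadjusted p under 0.05, with group means (horizontal lines) and SD (vertical lines, n = 4). The groups separate for Ccl3, Il12rb2, Csf3 and Il20rb and overlap for the other 6.

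Among the 14 interleukins tested the largest difference belonged to Il18, an interleukin-1 family cytokine that induces interferon gamma. Il18 stood at -1.72, -1.70, -1.31 and -0.81 in controls and at -0.04, -0.45, 0.10 and -1.14 with TCDD. Of the TCDD arrays 3 were above every control, and TCDD 4 lay between control 3 and control 4. The difference was 1.00 (SE 0.31), or 2.01-fold higher (adjusted p = 0.33; exact permutation p = 0.057), and it ran from 0.81 to 1.26 over 19 settings of the processing. Il18bp, the soluble inhibitor of interleukin-18, differed by -0.16 (SE 0.16), and the receptor chain Il18r1 was well above background on 1 control array only.

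The other interleukin-1 family members did not share that value. Il1a, a cell-associated alarmin, stood at -6.20, -6.03, -5.79 and -5.61 in controls and at -6.25, -6.60, -6.09 and -6.77 with TCDD. It was dim, well above background on 4 control arrays and 1 TCDD array, and differed by -0.52 (SE 0.18; adjusted p = 0.39). With normexp this was -0.07. Il1b, the secreted form, stood at -4.86, -4.74, -4.48 and -5.16 in controls and at -4.94, -4.59, -4.43 and -5.38 with TCDD, and the groups covered the same range. Its difference was -0.02 (SE 0.22). Il1rn, the antagonist of the interleukin-1 receptor, differed by -0.18 (SE 0.19), and Il33, an alarmin released from damaged cells, by 0.09 (SE 0.16).

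Of the other interleukins, Il11, a gp130 cytokine, differed by 0.22 (SE 0.12) and Il22, a lymphocyte product that acts on epithelia, by -0.44 (SE 0.27), or -0.04 with normexp. The remaining differences among the 14 ran from -0.20 (Il15) to 0.14 (Il23a). The median over the interleukins was 0.03, with 8 higher and 6 lower.

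Of the interleukin-6 family, Il6 was not detected, and the ligands Il11 and Lif and several receptor chains were. Il6r, the chain that binds interleukin-6, stood at -1.27, -1.10, -1.005 and -1.43 in controls and at -1.61, -1.39, -1.43 and -1.74 with TCDD. Only control 4 fell within the TCDD range. The difference was -0.34 (SE 0.12), or 1.27-fold lower (adjusted p = 0.38; exact permutation p = 0.086), and its 10 spots had a median SD of 0.07 within an array. Lifr, the LIF receptor, stood at -4.65, -4.74, -4.50 and -4.87 in controls and at -4.97, -5.10, -4.71 and -5.15 with TCDD, a difference of -0.29 (SE 0.12; adjusted p = 0.44), or -0.12 with normexp. Il6st, which encodes gp130 itself, differed by -0.11 (SE 0.07), and the interleukin-11 receptor Il11ra1 by -0.06 (SE 0.08).

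Lif stood at -5.17, -5.17, -4.61 and -4.83 in controls and at -1.82, -5.22, -4.64 and -5.01 with TCDD. TCDD 1 was far above the other 7 arrays, which covered 1 range. The difference of 0.77 (SE 0.69) was -0.02 without TCDD 1. Of the other gp130 ligands and receptors outside the set, 6 of 9 were tested, 4 higher and 2 lower, with 0 at an unadjusted p under 0.05 (all genes 10.7%). Among them were Clcf1 at 0.27 (SE 0.21), Ctf1 at 0.07 (SE 0.15) and Cntfr at -0.15 (SE 0.30), which are gp130 cytokines and proteins that bind them.

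The 19 interleukin receptors and partners had a median of -0.05. Il12rb2, the chain of the interleukin-12 receptor that carries the signal in T and NK cells, stood at -4.86, -4.81, -4.89 and -4.68 in controls and at -4.51, -4.23, -4.51 and -4.40 with TCDD. Every TCDD array was above every control. The difference was 0.40 (SE 0.08), or 1.32-fold higher (adjusted p = 0.20; exact permutation p = 0.029), and 0.08 with normexp. The other chain of that receptor, Il12rb1, and the ligand chain Il12a were not detected on any array, and Il12b was on 1.

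Il20rb, a chain of the receptors for interleukins 19, 20 and 24, stood at -5.13, -5.49, -4.20 and -5.55 in controls and at -6.24, -5.77, -6.04 and -6.28 with TCDD. It exceeded background on 4 of 4 controls but on 0 of 4 TCDD arrays, so the TCDD values are only bounds. Only TCDD 1 lay below its array's lowest signal well above background. With that value raised to it, Il20rb was 1.96-fold lower with TCDD, and with normexp Il20rb differed by -0.26. It entered the test through the control arrays alone and so had to differ, and no p is read from it. Its partner Il20ra differed by -0.36 (SE 0.34). Il17re, a receptor for interleukin-17C, differed by 0.26 (SE 0.14), or 0.10 with normexp, and the gamma chain shared by several interleukin receptors, Il2rg, by 0.12 (SE 0.14). The other receptors and partners ran from -0.18 (Il2rb) to 0.29 (Il1rap).

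AhR binds DNA with its partner Arnt at a short core element, GCGTG, so the stretches upstream of these genes are shown for the members at an unadjusted p under 0.05 that hold it. RefSeq promoters of the GRCr8 assembly, cut to the 250 bases before the annotated start, were matched for 132 of the 176 genes and for 65 of the 89 tested. Of the 10 genes at an unadjusted p under 0.05, 7 were matched, and 3 of them, Il12rb2, Il18 and Il6r, held the core on either strand. Capitals mark every match to the 4 motifs searched on both strands: the AhR core GCGTG, its flanked form TNGCGTG, which contains the core, the STAT element TTCNNNGAA, and the NF-kB consensus. On the minus strand the core reads CACGC. The windows are chr4:97844938-97845187 on the minus strand for Il12rb2, chr8:59801822-59802071 on the plus strand for Il18 and chr2:177645210-177645459 on the minus strand for Il6r, each written 5′ to 3′ toward the start site.
Il12rb2: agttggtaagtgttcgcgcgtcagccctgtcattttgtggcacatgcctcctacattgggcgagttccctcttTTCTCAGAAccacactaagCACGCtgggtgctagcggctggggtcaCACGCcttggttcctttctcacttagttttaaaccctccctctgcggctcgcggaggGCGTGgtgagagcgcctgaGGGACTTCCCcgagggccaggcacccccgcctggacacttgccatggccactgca
Il18: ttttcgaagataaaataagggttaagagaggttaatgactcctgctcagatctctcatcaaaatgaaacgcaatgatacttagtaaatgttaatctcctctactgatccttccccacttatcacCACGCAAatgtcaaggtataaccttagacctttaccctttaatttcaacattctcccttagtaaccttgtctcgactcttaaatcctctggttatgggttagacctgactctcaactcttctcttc
Il6r: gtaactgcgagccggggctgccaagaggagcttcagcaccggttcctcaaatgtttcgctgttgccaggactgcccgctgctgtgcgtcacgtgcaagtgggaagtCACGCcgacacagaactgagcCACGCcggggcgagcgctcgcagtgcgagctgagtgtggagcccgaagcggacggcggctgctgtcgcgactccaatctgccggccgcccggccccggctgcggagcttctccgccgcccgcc

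The Il12rb2 window held 3 cores, the first base of each 158, 131 and 74 bases before the start, a STAT element at 177 and an NF-kB match at 55. The Il18 window held 1 core, at 126, within the flanked form, and the Il6r window held 2, at 144 and 123. The core is common: it was in 25.9% of all 33469 promoters and in 27 of the 132 matched cytokine genes (20.5%). The flanked form was in 4.09% of all and 3 of 132 (2.27%), and the STAT element in 7.67% of all and 13 of 132 (9.85%). The NF-kB consensus was in 6.33% of all promoters and in 20 of the 132 (15.2%). A match says only that these letters are in the window.

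The TNF family held no gene at an unadjusted p under 0.05 among its 18 tested ligands, receptors and induced proteins, where 10.7% of all genes were at that level. Tnf stood at -5.68, -5.82, -5.76 and -4.85 in controls and at -5.15, -6.17, -5.05 and -5.68 with TCDD, with a difference of 0.02 (SE 0.30), or -0.02 with median centring. Its receptors Tnfrsf1a and Tnfrsf1b differed by -0.07 (SE 0.08) and -0.02 (SE 0.12). Of the 5 TNF ligands tested, Tnfsf10, or TRAIL, which triggers apoptosis, differed by -0.24 (SE 0.14) on 3 control and 1 TCDD arrays well above background, and Tnfsf12, or TWEAK, by 0.11 (SE 0.08). The 9 TNF receptors had a median of -0.07, with 2 higher and 7 lower. The 4 TNF-induced proteins ran from -0.19 (Tnfaip8l2) to 0.38 (Tnfaip2, SE 0.46).

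Among the colony-stimulating factors, Csf3, which drives neutrophil production, stood at -3.89, -3.79, -3.64 and -3.63 in controls and at -3.38, -3.38, -3.51 and -3.54 with TCDD. The groups did not overlap, although the gap between the highest control and the lowest TCDD array was smaller than the range within either group. The difference was 0.29 (SE 0.08), or 1.22-fold higher (adjusted p = 0.31; exact permutation p = 0.029), and 0.11 with normexp. Its receptor, Csf3r, stood at -6.39, -4.66, -6.18 and -6.17 in controls and at -6.90, -8.34, -6.44 and -6.23 with TCDD, dim on both sides, well above background on 3 control arrays and 1 TCDD array. The difference was -1.13 (SE 0.54; adjusted p = 0.51). Control 2 was the highest array and TCDD 2 the lowest, and leaving out 1 array moved the difference to between -1.31 and -0.68, and normexp to -0.16. The macrophage factor Csf1 differed by 0.11 (SE 0.11) and Csf2ra, the binding chain of the granulocyte-macrophage factor receptor, by -0.03 (SE 0.06).

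The SOCS proteins, which are induced by STAT signals and block them, had a median of 0.12 over 5 genes. Socs1, an inhibitor of interferon signalling, differed by 0.18 (SE 0.15), and Socs3, the main inhibitor at gp130, by -0.12 (SE 0.12). With normexp the first was -0.04 and the second 0.03. Socs4 differed by 0.12 (SE 0.08), Socs5 by -0.02 (SE 0.09) and Socs7 by 0.18 (SE 0.39).

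None of the genes listed as carrying these signals inside the cell passed the adjusted threshold. Of the 17 JAK and STAT proteins tested, 1 was higher and 2 were lower at an unadjusted p under 0.05, where 7.76% of all genes were higher and 2.95% lower. Stat2, a transcription factor of interferon signalling, differed by -0.15 (SE 0.06), and of the PIAS proteins, which restrain STATs, Pias4 differed by -0.17 (SE 0.06), Pias2 by 0.18 (SE 0.07) and Pias1 by 0.17 (SE 0.09). Of the NF-kB subunits and inhibitors 9 were tested and 0 were at an unadjusted p under 0.05. Chuk and Ikbkb, the kinases that release NF-kB, differed by 0.26 (SE 0.17) and -0.12 (SE 0.10), the inhibitor Nfkbia by -0.08 (SE 0.06) and its relative Bcl3 by 0.11 (SE 0.14).

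Of the 11 TNF receptor adaptors tested, 0 were at that level, against 10.7% of all genes in either direction. The nearest were Traf3 at 0.15 (SE 0.08), Traf4 at 0.16 (SE 0.11), the protease Casp8 at -0.60 (SE 0.58) and the kinase Map3k14 at -0.09 (SE 0.09). Of the 9 adaptors of interleukin-1 and Toll-like receptors tested, 5 were higher and 4 lower. At an unadjusted p under 0.05, 1 was higher (all genes 7.76%), the kinase Map3k7 at 0.16 (SE 0.07). Irak3, an inhibitor of that pathway, differed by -1.20 (SE 0.87), with TCDD 2 at -4.28 and the other arrays between -0.96 and 0.91. The kinase Irak4 differed by 0.80 (SE 0.62), with TCDD 1 at -2.88 and the others between -5.95 and -5.38, and Irak2 by -0.12 (SE 0.08). Of the 11 inflammatory NF-kB target genes tested, 5 were higher and 6 lower. At an unadjusted p under 0.05, 1 was lower (all genes 2.95%), the transcription factor Cebpb at -0.25 (SE 0.10). The adhesion molecules Vcam1 and Icam1, which hold leukocytes at the vessel wall, differed by -0.33 (SE 0.15) and 0.17 (SE 0.08), and Cebpd by -0.17 (SE 0.11). The atypical receptor Ccrl2 differed by -0.16 (SE 0.15), and Cmklr1, the chemerin receptor, by 0.11 (SE 0.12).

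The 4 genes of these families left out of the set were all lower with TCDD, 2 of them at an unadjusted p under 0.05 (all genes 2.95%). Cxcl2, a neutrophil attractant, stood at -4.39, -4.39, -4.72 and -4.39 in controls and at -5.63, -5.20, -5.22 and -5.63 with TCDD. The groups did not overlap, and the difference of -0.95 (SE 0.14; adjusted p = 0.079) was larger than that of any chemokine in the set. Csf1r, the macrophage receptor of Csf1, differed by -0.30 (SE 0.13), and Cxcl12 by -0.06 (SE 0.17), while Socs2 was at -0.0044 (SE 0.13).

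Markers of leukocytes and blood cells were read beside these genes, and their counts at an unadjusted p under 0.05 stand against 7.76% higher and 2.95% lower of all genes. The 6 pan-leukocyte markers had a median of -0.02, with 2 higher and 4 lower, and 1 of them, Cd52, was higher at that level, by 1.01. Their mean relative to each gene's mean over the 8 arrays ran from -0.27 to 0.14 in controls and from -0.13 to 0.13 with TCDD. Of the macrophage and monocyte markers, 10 of the 11 tested were lower with TCDD (all genes 43.6%), with a median of -0.12. Only 1 was at an unadjusted p under 0.05. It was Csf1r, which is also 1 of the 4 left-out genes given above. The mean of the macrophage and monocyte markers on the same scale ran from -0.03 to 0.15 in controls and from -0.39 to 0.16 with TCDD. The macrophage markers Cd163 and Mrc1 were too dim to test. Of the T and NK cell markers 8 of 13 were tested, 5 of them lower, with a median of -0.13, and control 4 had the highest mean (0.37), the array on which Ccl5 was highest. Cd3e, Cd8a, Cd2, Cd5 and Trac were not tested. The 4 neutrophil markers tested of 8 were all higher (all genes 56.4%), 1 of them (Mpo, by 0.73) at that level, with a median of 0.18. Their mean ran from -0.26 to -0.04 in controls and from 0.03 to 0.28 with TCDD. Elane, Ngp, Mmp8 and Mmp9 were not tested. All 6 erythrocyte markers tested were higher at an unadjusted p under 0.05, with a median of 0.65, and ran from -0.68 to 0.24 in controls and from -0.01 to 0.65 with TCDD. Of the 4 platelet and megakaryocyte markers tested, 3 were higher, 0 of them at that level, with a median of 0.24. They ran from -0.25 to -0.0040 in controls and from -0.20 to 0.30 with TCDD. Beside blood cells, the 7 posterior lobe and neural markers tested had a median of -0.12, with 3 higher and 4 lower. Of these, 1 was lower at that level. Their mean ran from -0.39 to 0.48 in controls and from -0.46 to -0.06 with TCDD. Of the B cell and mast cell markers 1 each was tested, Pax5 and Kit. The part of these cells in the values of Ccl3, Ccl5, Il18 and Csf3 was not tested.

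**Figure D4:**
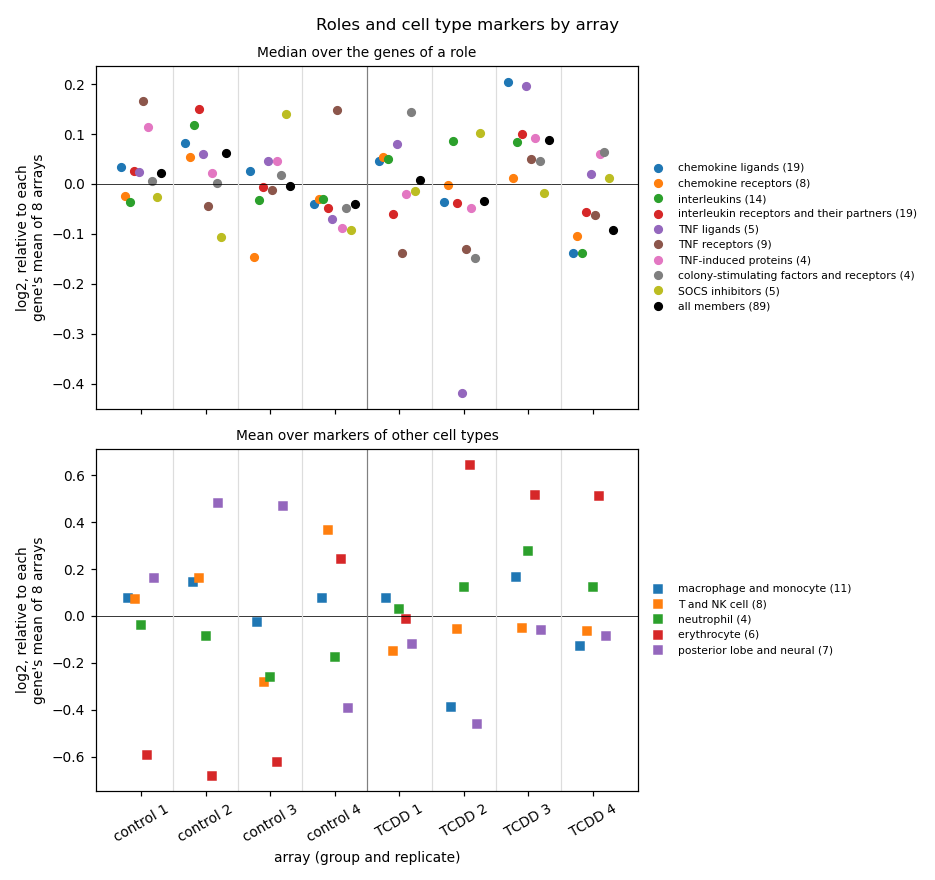
Top, the median over the genes of each role on each array, as log2 relative to each gene's mean of the 8 arrays; bottom, the mean over markers of other cell types on the same scale. The median of all 89 genes stays close to 0 on every array. The erythrocyte markers of controls 1 to 3 lie at or below -0.59 and those of TCDD 2 to 4 at or above 0.51. Those of control 4, at 0.24, lie above those of TCDD 1, at -0.01.

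The arrays differed in which cytokine genes were extreme. TCDD 2 gave the lowest of the 8 values for 20 of the 89 genes and TCDD 4 for 19, whereas TCDD 3 gave the lowest for 4 and the highest for 18. The median relative level of the 89 genes ran from -0.09 on TCDD 4 to 0.09 on TCDD 3. The median of the chemokine ligands was 0.20 on TCDD 3 and -0.14 on TCDD 4.

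The median SD within groups was 0.25 over the 89 genes and 0.15 over all genes tested, on a log2 scale. The widest were Lif (SD 1.14), the interleukin-1 receptor partner Il1rap (1.01), Csf3r (0.88), the mucosal chemokine Ccl20 (0.78) and Ccl11 (0.78), which were picked out for that spread. Il1rap stood at -3.58, -3.99, -5.56 and -4.18 in controls and at -4.82, -3.45, -2.74 and -5.14 with TCDD, with no order between the groups. Some genes were steady: the eosinophil chemokine Ccl24 stood between 3.12 and 3.25 on all 8 arrays, with a difference of 0.05 (SE 0.05).

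**Figure D5:**
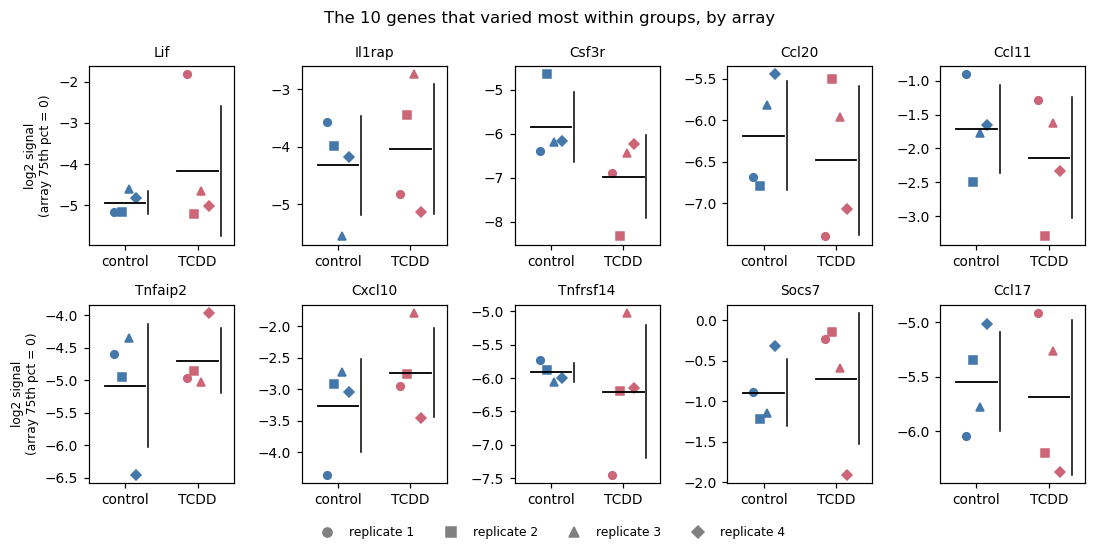
Log2 signal on each array, relative to the array's 75th percentile, of the 10 genes that varied most within groups, with group means (horizontal lines) and SD (vertical lines, n = 4). Lif is set apart by TCDD 1 at -1.82, and Csf3r by control 2 at -4.66 and TCDD 2 at -8.34.

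Several genes had more than 1 probe. Of the 17 such genes, 5 had a second probe that was also bright enough to test. Both probes of Ccl6 gave -0.11, those of Socs7 0.18 and 0.13, whereas those of Il13ra1 gave 0.12 and -0.07 and those of Il3ra -0.15 and 0.04. The probes of Tnfrsf1b gave -0.02 and -0.0012. In the rn4 assembly, the probe of Ccl3 lies at chr10:71744611-71744670 and that of Ccl5 at chr10:71605854-71605913, that of Il18 at chr8:53943005-53943064, that of Il12rb2 at chr4:96929795-96929854 and that of Il6r at chr2:182078323-182078382. Their position within exons was not determined here.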

How the data were processed

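Cy3-labelled pituitary RNA was hybridised to 1-colour Agilent rat arrays, per the labels' protocols. Spots were read by Agilent Feature Extraction, version 10.7.1.1, and probe coordinates are of rn4, per the file headers. The deposited intensities are linear, background-subtracted processed signals, per the file headers, and the mean and local background intensities were deposited beside them. A deposited table of linear intensities with 1 shared distribution served as an alternative.

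Processed intensities were divided by the array's 75th percentile, computed without control spots, and log2-transformed. Outlier spots were missing, spots of a probe were averaged, and of a gene's probes well above background on 4 or more arrays the brightest was used. For a probe with several spots, at least as many flagged above background as not were required on an array. The test was limma's (lmFit, eBayes; limma 3.58.1, R 4.3.3) with no covariate, two-sided, and p-values were adjusted by Benjamini-Hochberg over 17361 genes. This fit was checked on simulated data. Exact permutation tests used all 70 assignments. Folds given as "at least" compare the bright group's mean with the dim group's. Before that, each dim value below its array's lowest signal well above background is raised to that signal.

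Gene names are those of the arrays; 6 have newer symbols in RefSeq's GRCr8 table (Il28ra, Cxcl5, Cxcr7, Il1f6, Il1f8 and Il4ra). Genes were named if among the 12 with the smallest p in each direction, if detected on all arrays of 1 group and none of the other, or on a list of 22 cytokine genes, of which 19 were measured. Of each pathway list the 4 with the smallest p were named. Some genes that these rules take are not reported here. The genes, lists and rules were chosen with earlier results of these data known. The labels do not say that the replicate numbers pair samples, so no pairing was used. Same-numbered arrays of the 2 groups had deviations that correlated from -0.10 to -0.02 across genes, and differently numbered arrays from -0.17 to 0.21. Such values cannot settle whether samples were paired. Alternatives covered scaling, background, dim probes, probe choice, variance model, replicate block and leaving out each array.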

Additional observations from a re-analysis of the deposited data

Results flagged for a closer look

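In 3 of the 72 groups examined, 1 array stood apart from the other 3 by more than Dixon's 95% value, and about 5% of groups do so by chance. In the control group of Csf3r, control 2 stood at -4.66 against -6.39 to -6.17, a gap of 0.88 of the group's range. In the TCDD group of Lif, TCDD 1 stood at -1.82 against -5.22 to -4.64, a gap of 0.83 of the range. In the control group of Tnf, control 4 stood at -4.85 against -5.82 to -5.68, a gap of 0.85 of the range. What set these arrays apart was not tested.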

How the results depend on the processing

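Of the 18 alternatives to the main setting, 0 brought a cytokine gene past an adjusted p of 0.05, and the smallest adjusted p ran from 0.16 to 0.43. At an unadjusted p under 0.05 normexp left 1 gene higher and 9 lower (11.2%, against 11.1% of all genes). Leaving out 1 array left 3 to 6 higher and 3 to 6 lower, with 3 lower without control 2 or TCDD 4. That was 7.06% to 12.5% of the cytokine genes tested, against 8.06% to 11.7% of all genes. With the replicate block, although the labels do not say that the numbers pair samples, 5 were higher and 6 lower (12.4%, against 8.72% of all genes). The smallest adjusted p was then 0.37, and 0 of all genes passed. Of the 36 genes named by rule, 26 kept their direction in every setting that tested them and 10 did not. Ccl2 was at -0.024 with quantile normalisation, -0.012 with normexp, -0.0099 with median centring and -0.0061 in the deposited table. Tnf was at -0.026, -0.022 and -0.036 with quantile normalisation, median centring and the deposited table. With normexp Ccr1l1 was at -0.039, Csf2ra at 0.015, Socs1 at -0.040, Socs3 at 0.028 and Tnfrsf1b at 0.0029, and Il1b was at 0.024 with outlier spots kept. Leaving out 1 array moved Ccl2 from -0.022 to 0.12, Tnf from -0.14 to 0.24, Il1b from -0.16 to 0.16, Tnfrsf1b from -0.094 to 0.082, Lif from -0.015 to 1.12, Cx3cl1 from -0.011 to 0.092 and Csf2ra from -0.055 to 0.0015. The cause of these turns was not tested. The median of all genes was 0.02, against 0.0032 with quantile normalisation and -0.02 with median centring. Median log2 differences of small roles moved with the filter on dim probes: chemokine receptors went from 0.12 to -0.07 over genes detected on all 8 arrays. Signal over background limits the comparison to 89 of 176 genes, and exposure and slide cannot be told apart.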
